A study of Mus musculus with 4 samples.

Results

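The 9 genes described here build and harden the inner root sheath of the hair follicle: the type I keratins Krt25, Krt26, Krt27 and Krt28, the type II keratins Krt71, Krt72 and Krt73, trichohyalin (Tchh) and the enzyme gene Padi3. They were taken by name from a list of genes known for this sheath, which was chosen with earlier results of these data known. All 9 were found among the 39179 genes of the count files. RNA was sequenced from skin of mice on the C57BL/6 background in 4 libraries. The 2 WT libraries came from wild-type animals. The 2 Itch KO libraries came from animals lacking Itch, a ubiquitin ligase of the Nedd4 family, and their skin was taken from lesions. In the labels the phenotype entry reads inflammation for WT and knockout alike. The sources used here give no age, sex, body site or Itch allele and leave unsaid if the 2 libraries of each genotype are separate animals, so the tests measure only the spread between these libraries.

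The inner root sheath is a sleeve of keratinocytes that moulds the growing hair and is made only while a follicle is in its growth phase, anagen. Its cells assemble filaments from type I keratins joined to type II keratins, and fill up with trichohyalin, a large protein rich in charged residues. Padi3 converts arginine residues of trichohyalin to citrulline, after which transglutaminases such as Tgm3 cross-link the protein to the keratins. In human follicles, keratins 25, 27, 28 and 71 are found in all layers of the sheath, and keratins 26, 72 and 73 in its cuticle.

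The keratins of the sheath lie in blocks of neighbouring genes, and promoters from both blocks are shown. A link between these sequences and the RNA levels was not tested. The RefSeq windows below (build GRCm38.p6, minus strand, 5′ to 3′) run from 100 bases before to 10 bases after the start of transcription, and capitals mark TATAAA, the core of the TATA box. They come from chr11:99322942-99323051 for Krt25, chr11:99374894-99375003 for Krt28, chr15:101743088-101743197 for Krt71, chr15:101802351-101802460 for Krt73 and chr15:101786511-101786620 for Krt72.
Krt25: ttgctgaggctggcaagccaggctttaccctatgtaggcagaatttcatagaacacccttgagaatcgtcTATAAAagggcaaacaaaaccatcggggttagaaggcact
Krt28: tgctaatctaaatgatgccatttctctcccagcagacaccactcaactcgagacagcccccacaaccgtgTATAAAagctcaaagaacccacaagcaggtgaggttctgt
Krt71: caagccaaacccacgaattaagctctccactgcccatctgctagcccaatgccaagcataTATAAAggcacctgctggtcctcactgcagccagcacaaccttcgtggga
Krt73: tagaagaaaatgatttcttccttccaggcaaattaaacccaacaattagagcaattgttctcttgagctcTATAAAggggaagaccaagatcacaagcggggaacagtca
Krt72: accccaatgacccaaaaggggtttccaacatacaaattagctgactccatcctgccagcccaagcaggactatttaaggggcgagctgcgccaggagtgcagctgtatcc

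TATAAA on the gene strand began 30 bases before the start in Krt25, Krt26, Krt28 and Krt73, 40 bases before it in Krt71 and 15 bases before it in Krt27. Krt26 also held it 158 bases before the start. The starts are those of RefSeq. In Krt26, Krt27, Krt71, Krt72 and Krt73 they differ from the GENCODE gene starts given below, so these distances depend on the annotation used. In Krt72 the letters were found only on the other strand, 203 bases before the start, and the windows of Tchh and Padi3 hold them on neither strand. Only the exact letters TATAAA were searched, so other forms of a TATA box were not counted. The printed Krt72 window holds the similar letters tatttaa, which begin 30 bases before the start. The promoters of all 9 members were in the RefSeq table. Of all 32851 RefSeq windows, 2.40% hold TATAAA on the gene strand between 50 and 11 bases before the start, against 5 of the 9 members. In the whole window, from 250 bases before to 50 after the start and on both strands, the GATA-type motif AGATAA was found in 5 of 9 members and 11.2% of all windows, and the homeodomain-type motif TAATTG in 4 of 9 and 8.0%. The TCF/LEF-type motif CTTTGA was found in 2 of 9 and 16.0%, and the AP-1 motif TGANTCA in 0 of 9 and 7.81%. The motifs were chosen after the sequences were seen, a CTTTGA on the reverse strand of Tchh overlaps its AGATAA, and a match is a description of the letters only.

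Gene reads numbered between 15144957 and 16008351 per library, so depth differed little. Itch stood at 96.7 and 103 CPM (read counts scaled to the size of the library) in WT and at 11.7 CPM in both knockouts, on the side of each label. Krt5, a keratin of basal epidermal and outer root sheath cells that marks skin, ranged from 2845 to 2935 CPM over the 4 libraries. The groups also differed in sex-linked RNA, with Xist at 1055 and 631 CPM in WT and 0.947 and 0.892 CPM in the knockouts, so genotype and sex cannot be told apart here. WT replicate 1 stood apart from the other 3 libraries in hair and muscle genes. The 10 skeletal muscle genes listed, of which 9 were tested and 8 had both knockouts below both WT libraries (30% of all tested genes did), summed to 16463 CPM in WT replicate 1, 2672 in WT replicate 2, and 1277 and 1061 in the knockouts, with Tnnc2 at 0 reads in WT replicate 2. Their part in the results below was not tested.

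The inner root sheath genes were nearly absent from WT replicate 1 and abundant in WT replicate 2 and both knockouts. The 9 genes together took 666 reads in WT replicate 1, which is 0.00432% of its gene reads (95% exact binomial interval 0.00400% to 0.00466%). In WT replicate 2 they took 141752 reads, or 0.936%. The knockouts lay beside that library, with 101328 reads (0.633%) in replicate 1 and 153215 reads (0.965%) in replicate 2. The level in WT replicate 1 was low but measured, since each member had between 18 and 205 reads there, above the floor of 3 counts. In bulk skin, fewer sheath cells and less RNA per cell cannot be told apart. Intervals and floors cover counting error only.

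**Figure D1:**
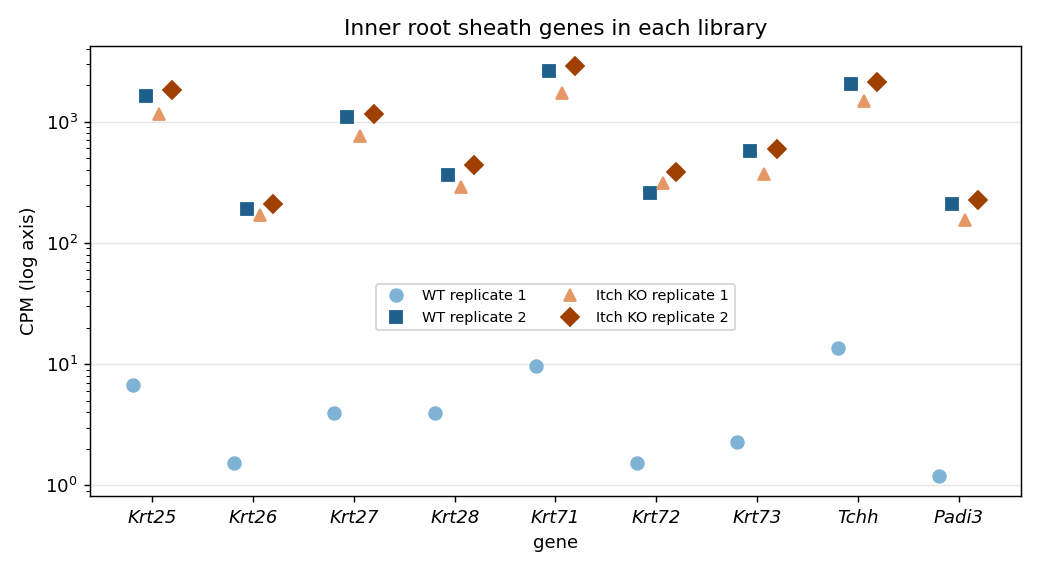
CPM of the 9 inner root sheath genes (x axis) in each of the 4 libraries (points) on a log axis. WT replicate 1 lies between 1.20 and 13.7 CPM, and the other 3 libraries lie between 154 and 2848 CPM for every gene.

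Krt25 (ENSMUSG00000035831, GRCm38 chromosome 11, 99315516 to 99322951, minus strand) had the highest level per length among the type I members. It stood at 6.73 CPM in WT replicate 1, 1613 in WT replicate 2, 1162 in knockout replicate 1 and 1804 in knockout replicate 2. Krt27 (ENSMUSG00000017588, 99345565 to 99351104) stood at 3.93 (WT replicate 1), 1082 (WT replicate 2), 753 (knockout replicate 1) and 1158 CPM (knockout replicate 2). In both genes WT replicate 2 lay between the knockout libraries, so the groups overlapped. Krt28 (ENSMUSG00000055937, 99364872 to 99374903) stood at 3.93 (WT replicate 1), 362 (WT replicate 2), 288 (knockout replicate 1) and 435 CPM (knockout replicate 2). Krt26 (ENSMUSG00000075570, 99328550 to 99337966), the cuticle keratin of this block, stood at 1.53 (WT replicate 1), 188 (WT replicate 2), 169 (knockout replicate 1) and 208 CPM (knockout replicate 2). Across the 4 type I members, WT replicate 2 was between 92.0-fold (Krt28, 95% exact counting interval 71.2 to 121) and 275-fold (Krt27, 213 to 362) above WT replicate 1.

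Krt71 (ENSMUSG00000051879, chromosome 15, 101733949 to 101743109, minus strand), the main type II partner, stood at 9.60 CPM in WT replicate 1, 2608 in WT replicate 2, 1707 in knockout replicate 1 and 2848 in knockout replicate 2. Krt73 (ENSMUSG00000063661, 101793308 to 101802346) stood at 2.27 (WT replicate 1), 574 (WT replicate 2), 370 (knockout replicate 1) and 588 CPM (knockout replicate 2). Both showed the order of the type I keratins, with knockout replicate 1 the lowest of the 3 high libraries. Krt72 (ENSMUSG00000056605, 101776172 to 101786460) stood at 1.53 (WT replicate 1), 257 (WT replicate 2), 313 (knockout replicate 1) and 382 CPM (knockout replicate 2). Among the members, Krt72 alone had no overlap of the groups, with each knockout above each WT library. Over all tested genes that arrangement was seen for 31.2%, and the reverse, found for 0 of the 9 members, for 30%.

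Tchh (ENSMUSG00000052415, chromosome 3, 93442330 to 93449077, plus strand), which fills the sheath cells and the hair medulla, was at 13.7 (WT replicate 1), 2052 (WT replicate 2), 1482 (knockout replicate 1) and 2115 CPM (knockout replicate 2). Padi3 (ENSMUSG00000025328, chromosome 4, 140785365 to 140810648, minus strand), which modifies it, stood at 1.20 (WT replicate 1), 211 (WT replicate 2), 154 (knockout replicate 1) and 225 CPM (knockout replicate 2). An annotated non-coding RNA on the opposite strand, Gm37245, overlaps Tchh and is not among the counted genes, so its reads cannot be told apart from those of Tchh without strand. Substrate and enzyme kept close to one ratio between libraries: WT replicate 2 was 150-fold above WT replicate 1 for Tchh (95% exact counting interval 131 to 173) and 176-fold for Padi3 (111 to 297). Relative to WT replicate 2, knockout replicate 1 was at 0.722 for Tchh (0.710 to 0.735) and 0.733 for Padi3 (0.695 to 0.772). Knockout replicate 2 was at 1.03 (1.02 to 1.05) and 1.07 (1.02 to 1.12).

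No difference between genotypes was detected for these genes. All 9 passed the filter on low counts, and 0 of 9 were called by the edgeR quasi-likelihood test at adjusted p under 0.05, where 0.00601% of all 16651 tested genes (1 gene) were called. At an unadjusted p under 0.05 it was also 0 of 9, where 22.8% of all tested genes (3802) passed, and DESeq2, which called 14% of all genes, called 0 of 9. The log2 fold changes of knockout over WT ranged from 0.73 (SE 2.03, Krt73) to 1.42 (SE 1.92, Krt72), with a median of 0.84 against 0.01 over all tested genes. Their adjusted p in edgeR ranged from 0.678 to 0.847. Every standard error exceeded its fold change, and the gap between the WT libraries, 92.0-fold to 275-fold, was wider than that between the group means.

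The size and the sign of these fold changes rested on the WT libraries. Without WT replicate 1, the log2 fold changes of 8 of the 9 genes were below 0, from -0.26 (Krt73) to -0.0041 (Krt26), while Krt72 was at 0.43 (adjusted p = 0.236 in edgeR), and 0 were called. Without WT replicate 2, the median was 7.72 and all 9 were called as higher, between adjusted p = 0.000106 and 0.00207. These edgeR fits take the single remaining WT library to vary as the 2 knockout libraries do. The limma-voom test, which works on log values, gave a median of 3.63 with 0 of 9 called.

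WT replicate 1 was at least 8-fold below each of the other 3 libraries in 9 of 9 members, and in 2.2% of all tested genes (366). The 8-fold limit was chosen after the values were seen. The smallest gap among the members was in Krt28, where knockout replicate 1 was 73.3-fold above WT replicate 1 (95% exact counting interval 56.7 to 96.4). Between the knockout libraries, replicate 2 was above replicate 1 in all 9 genes, from 1.22-fold (Krt72, 1.18 to 1.27) to 1.67-fold (Krt71, 1.64 to 1.69).

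Levels per length of transcript ranked the members nearly alike in every library. As CPM per kb of exon length, Krt71 was the highest in all 4 libraries (4.39 and 1193 in WT, 781 and 1303 in the knockouts). Krt25 followed in all 4, at 3.39 (WT replicate 1), 811 (WT replicate 2), 584 (knockout replicate 1) and 907 (knockout replicate 2), and then Krt27 at 2.54 and 698 against 486 and 747. Tchh ranked below these 3 keratins, at 2.35 and 352 CPM per kb in WT and 255 and 363 in knockout skin. The middle of the order was not settled: Krt73 was above Krt28 in 2 of 4 libraries (1.19 times in WT replicate 2, 1.01 in knockout replicate 2) and below it in WT replicate 1 (0.432) and knockout replicate 1 (0.963). Krt72 ranked the seventh in all 4 libraries. Padi3 and Krt26 were the lowest and changed places, with Padi3 above Krt26 in 2 of 4 libraries.

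The balance of keratin types was close to even and alike in the 3 libraries rich in sheath RNA. Summed per kb, the type I members stood to the type II members at 1.12 in WT replicate 2 (95% counting interval 1.11 to 1.14), 1.17 in knockout replicate 1 (1.15 to 1.18) and 1.12 in knockout replicate 2 (1.11 to 1.13). In WT replicate 1, where the sums rested on 242 and 201 reads, the ratio was 1.41 (1.17 to 1.71). Within type I reads, Krt28 made up 24.4% in WT replicate 1 (95% exact interval 19.1% to 30.3%), against 11.2% in WT replicate 2 (10.9% to 11.4%) and 12.1% in both knockouts. Krt27 made up 24.4% there (19.1% to 30.3%), against 33.4% in WT replicate 2 and 31.7% and 32.1% in the knockouts. The small remainder of sheath keratin RNA in WT replicate 1 thus held relatively more Krt28 and less Krt27 than in the other libraries, by more than counting error.

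Krt72 took a larger part of the type II reads in the knockouts than in WT replicate 2. Its share was 7.48% in WT replicate 2 (95% exact interval 7.26% to 7.71%), 13.1% in knockout replicate 1 (12.8% to 13.4%) and 10% in knockout replicate 2 (9.77% to 10.2%). In WT replicate 1 it was 11.4%, with an interval of 7.39% to 16.7% that covers the values of the other 3 libraries. The WT libraries therefore do not fix a WT level for this share, and with 2 libraries a group an exact permutation test cannot go below p = 1/3. Krt73, which is also a cuticle keratin, made up 16.9% and 16.7% of type II reads in WT and 15.5% and 15.4% in knockout skin. Its interval in WT replicate 1, 12.0% to 22.8%, also covers the values of the other 3 libraries. Sequence shared with other genes was rare in the type II members: 0.158% of the 50-base stretches of the Krt72 transcript, 1.32% of Krt73 and 1.97% of Krt71 also occur in another annotated gene. For Krt25 and Krt27, whose sequences are alike, it was 10.9% and 11.1%, so their split is less certain.

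**Figure D2:**
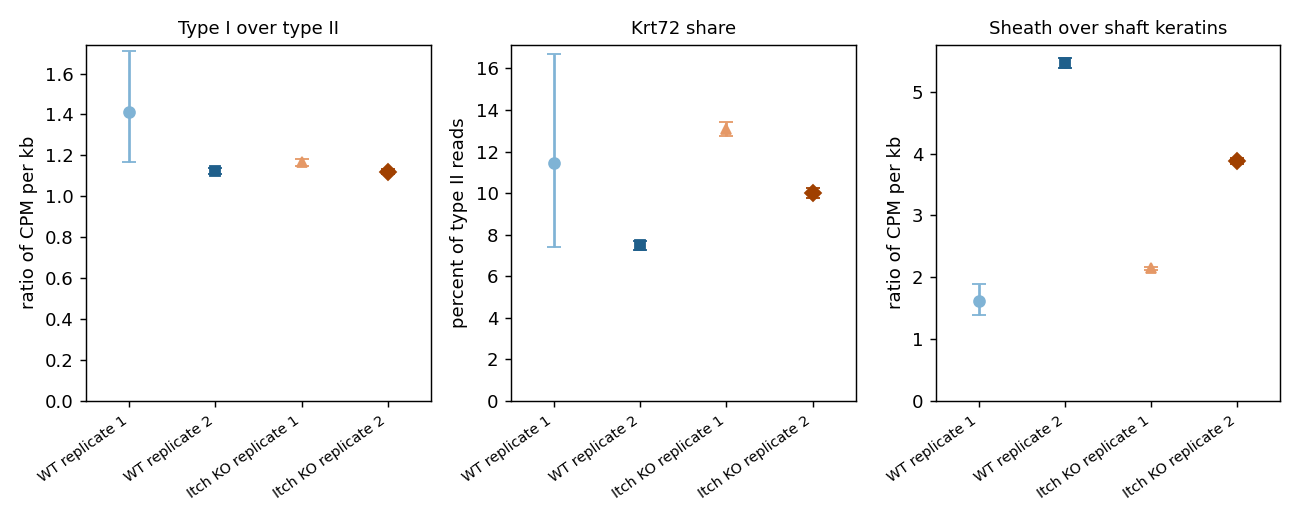
Proportions within each library (points, with 95% counting intervals as bars): the ratio of type I to type II inner root sheath keratins per kb, the percentage of type II reads from Krt72, and the ratio of inner root sheath to hair shaft keratins per kb (Krt85 not matched). The type I to type II ratio lies between 1.12 and 1.41, while the sheath to shaft ratio runs from 1.61 in WT replicate 1 to 5.47 in WT replicate 2.

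Hair shaft keratins, which build the fibre inside the sheath, shared the low level in WT replicate 1 but stood differently in the knockouts. Of 15 shaft keratins measured, 14 were at least 8-fold lower in WT replicate 1 than in each other library, as were 2.2% of all tested genes. Both knockouts were above both WT libraries in 11 of the 15, against 1 of 9 sheath genes and 31.2% of all tested genes. Krt33a, a keratin of the shaft cortex, stood at 1.27 (WT replicate 1), 147 (WT replicate 2), 278 (knockout replicate 1) and 216 CPM (knockout replicate 2). Krt83 stood at 1.27 (WT replicate 1), 99.7 (WT replicate 2), 242 (knockout replicate 1) and 201 CPM (knockout replicate 2). Against WT replicate 2 alone, the median log2 ratio of the shaft keratins was 0.84 in knockout replicate 1 and 0.56 in knockout replicate 2, and that of the sheath genes was -0.47 and 0.13. Over all tested genes these medians were 0.00077 and 0.03. None of the shaft keratins was called by edgeR or DESeq2, which called 0.00601% and 14% of all tested genes. At an unadjusted p under 0.05 in edgeR it was 0, against 22.8% of all tested genes. The difference between the sheath and shaft lists was not tested.

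Summed per kb, sheath keratins exceeded the 15 matched shaft keratins in every library, but by different factors. Krt85, a listed shaft keratin, was not matched and is missing from the shaft sum, so the ratios could be lower with it. The ratio was 1.61 in WT replicate 1 (95% counting interval 1.38 to 1.89), 5.47 in WT replicate 2 (5.39 to 5.56), 2.15 in knockout replicate 1 (2.12 to 2.17) and 3.88 in knockout replicate 2 (3.83 to 3.93). Both knockouts lay between the WT libraries. Krt35, a shaft keratin of the hair matrix and lower cortex, went with the sheath genes, at 1.73 (WT replicate 1), 337 (WT replicate 2), 245 (knockout replicate 1) and 393 CPM (knockout replicate 2). The shaft keratins Krt32, Krt40 and Krt82 had the same order, with knockout replicate 1 below WT replicate 2 and knockout replicate 2 above it.

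**Figure D3:**
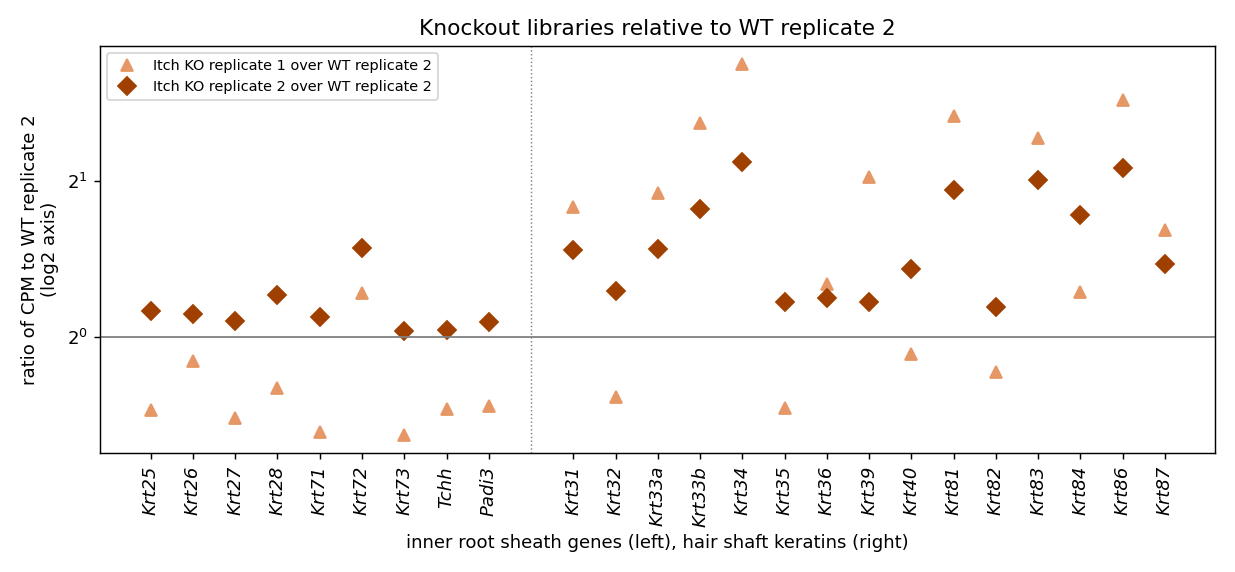
CPM in each knockout library divided by CPM in WT replicate 2 (y axis, log2 scale) for the 9 inner root sheath genes and 15 hair shaft keratins (x axis). In knockout replicate 1 the sheath genes other than Krt72 lie below 1, down to 0.645 for Krt73, while 11 of the shaft keratins lie above 1, up to 3.36 for Krt34.

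The listed partners of the sheath genes differed among themselves. Of 10 partners, 4 shared the gap of at least 8-fold in WT replicate 1, which 2.2% of all tested genes showed. Both knockouts were above both WT libraries in 2 partners and below them in 3, near or under the 31.2% and 30% of all tested genes. In edgeR 0 of the 10 were called while 2 were lower at an unadjusted p under 0.05, as were 10.9% of all tested genes. With DESeq2, which called 6.16% of all genes as lower, Gata3 was called as lower. Gata3, a transcription factor needed for the sheath and also made by other skin cells, stood at 330 (WT replicate 1), 248 (WT replicate 2), 135 (knockout replicate 1) and 157 CPM (knockout replicate 2) (log2 fold change -0.99, SE 0.21, adjusted p = 0.115 in edgeR and 0.00236 in DESeq2). Tgm3, the transglutaminase that acts on trichohyalin, stood at 3.20 (WT replicate 1), 42.7 (WT replicate 2), 81.2 (knockout replicate 1) and 93.8 CPM (knockout replicate 2), without overlap of the groups. Cdsn, the adhesion protein corneodesmosin of cornified cells, stood at 718 (WT replicate 1), 844 (WT replicate 2), 510 (knockout replicate 1) and 585 CPM (knockout replicate 2). With Liph, a lipase needed for hair growth, Gata3 and Cdsn were the 3 partners with both knockouts below both WT libraries. Tgm1, the transglutaminase of the epidermal envelope, stood at 125 (WT replicate 1), 201 (WT replicate 2), 207 (knockout replicate 1) and 260 CPM (knockout replicate 2). Tchhl1, which encodes the trichohyalin-like protein 1, stood at 0.800 (WT replicate 1), 171 (WT replicate 2), 111 (knockout replicate 1) and 120 CPM (knockout replicate 2).

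Among the deiminases, Padi1 and Padi4 went with Padi3 and Padi2 did not. Padi2, a deiminase of muscle and other tissues, stood at 118 (WT replicate 1), 12.4 (WT replicate 2), 11.1 (knockout replicate 1) and 17.1 CPM (knockout replicate 2), the opposite of Padi3. Padi1 stood at 0.333 (WT replicate 1), 31.0 (WT replicate 2), 15.3 (knockout replicate 1) and 19.3 CPM (knockout replicate 2), and Padi4 at 2.07 and 34.8 against 28.2 and 29.7 CPM. All 4 deiminases tested overlapped between groups. Over all tested genes, 31.2% had both knockouts above both WT libraries and 30% had them below. Of the 4, 0 were called by edgeR or DESeq2, which called 0.00601% and 14% of all tested genes. At an unadjusted p under 0.05 in edgeR it was also 0, against 22.8% of all tested genes. Of the S100-fused proteins, the family of Tchh, Crnn (cornulin) stood at 0.467 (WT replicate 1), 184 (WT replicate 2), 123 (knockout replicate 1) and 165 CPM (knockout replicate 2). Flg2 of the epidermis went another way, at 884 (WT replicate 1), 527 (WT replicate 2), 167 (knockout replicate 1) and 99.7 CPM (knockout replicate 2) (adjusted p = 0.0872 in edgeR and 3.71e-07 in DESeq2). Hrnr stood at 225 (WT replicate 1), 514 (WT replicate 2), 444 (knockout replicate 1) and 299 CPM (knockout replicate 2). Rptn stood at 27.0 (WT replicate 1), 197 (WT replicate 2), 272 (knockout replicate 1) and 517 CPM (knockout replicate 2).

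Regulators of growing follicles were also mostly lowest in WT replicate 1: 9 of 12 had their lowest level there, against 34.1% of all tested genes, with a median log2 ratio of WT replicate 2 to WT replicate 1 of 2.90. Hoxc13, a regulator of hair keratins, stood at 8.53 (WT replicate 1), 90.8 (WT replicate 2), 55.3 (knockout replicate 1) and 104 CPM (knockout replicate 2), and Dlx3, a matrix and sheath regulator, at 35.6 and 226 against 125 and 227 CPM. Ovol1, also among the most abundant of the list, differed less, at 88.7 (WT replicate 1), 155 (WT replicate 2), 153 (knockout replicate 1) and 162 CPM (knockout replicate 2). Shh, a signal of the growing hair bulb, had 2 (WT replicate 1), 134 (WT replicate 2), 57 (knockout replicate 1) and 95 reads (knockout replicate 2). Of 12 matrix regulators, 3 were at least 8-fold lower in WT replicate 1 than in all other libraries, and they summed to 246 CPM there and 754 in WT replicate 2, with 509 and 761 in the knockouts. Those 3 were Shh, Lef1 and Foxe1. The 6 melanocyte genes, whose pigment is made for the growing hair, summed to 38.4 (WT replicate 1), 550 (WT replicate 2), 164 (knockout replicate 1) and 392 CPM (knockout replicate 2). Stem cell genes of the follicle differed less in their sums, at 692 (WT replicate 1), 687 (WT replicate 2), 642 (knockout replicate 1) and 618 CPM (knockout replicate 2). Of these 8 genes, 0 had the 8-fold gap. Both knockouts were below both WT libraries in 4 of the 8, against 30% of all tested genes, and above them in 0. Lgr6 stood at 51.8 and 21.2 CPM in WT against 3.09 and 4.59 in the knockouts. Cd34, the most abundant of the 8, stood at 232 and 123 against 307 and 179 CPM. The part of hair growth phase in the levels of the 9 members was not tested.

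In their sums, the lists below did not follow the pattern of the sheath genes. The 9 keratins of the outer root sheath and companion layer summed to 8338 (WT replicate 1), 10616 (WT replicate 2), 13876 (knockout replicate 1) and 16262 CPM (knockout replicate 2). Of these, 2 had the 8-fold gap, against 2.2% of all tested genes. Both knockouts were above both WT libraries in 5 and below them in 1, against 31.2% and 30% of all tested genes. The 8 leukocyte genes summed to 289 (WT replicate 1), 261 (WT replicate 2), 1723 (knockout replicate 1) and 1089 CPM (knockout replicate 2), and 7 of the 8 had both knockouts above both WT libraries, against 31.2% of all tested genes. Adipocyte genes summed to 4120 (WT replicate 1), 2238 (WT replicate 2), 2889 (knockout replicate 1) and 2985 CPM (knockout replicate 2). Keratins of the epidermis between follicles summed to 12936 (WT replicate 1), 12438 (WT replicate 2), 7323 (knockout replicate 1) and 8231 CPM (knockout replicate 2). Of these 5 keratins, 3 had both knockouts below both WT libraries, against 30% of all tested genes. Krt1 overlapped between groups in the order of most sheath genes, at 1818 (WT replicate 1), 3730 (WT replicate 2), 2735 (knockout replicate 1) and 3777 CPM (knockout replicate 2). The sums of the leukocyte genes and of the outer root sheath and epidermal keratins thus separated the groups. The sum of the 9 sheath genes, at 44.4 (WT replicate 1), 8948 (WT replicate 2), 6400 (knockout replicate 1) and 9762 CPM (knockout replicate 2), did not.

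Along the genome, most keratins with the gap between the WT libraries lay in the blocks of sheath and shaft keratins. On chromosome 11, Krt25 to Krt28 stand the third to the sixth of 27 keratin genes, between 99315516 and 99374903. Their neighbours Krt24 and Krt10 did not share the gap. Krt24 stood at 43.5 and 16.4 CPM in WT, and Krt10, a keratin of suprabasal epidermis, at 4274 and 4128 CPM. On chromosome 15, Krt71, Krt72 and Krt73 lie between 101733949 and 101802346, with Krt74 inside the block. Krt74, a sheath keratin gene in people that the annotation calls a pseudogene in this mouse genome, had 2 (WT replicate 1), 169 (WT replicate 2), 87 (knockout replicate 1) and 112 reads (knockout replicate 2). On one side Krt5, given above, was level across libraries, and on the other Krt2 had few reads, at 2.20 and 3.28 CPM in WT. Besides the members, 9 keratins on chromosome 11 and 11 on chromosome 15 had the 8-fold gap, 14 of them shaft keratins. Of all tested genes, 2.2% had it. The rest were Krt16 on chromosome 11 and Krt6b, Krt8, Krt18, Krt74 and Krt90 on chromosome 15, and Krt8 had 1 read in WT replicate 1. Krt16 and Krt6b differed from the sheath genes in that the knockouts also stood well above WT replicate 2. Krt16 stood at 20.7 and 190 CPM in WT against 1250 and 1447 in the knockouts. Krt6b stood at 6.60 and 72.5 against 1474.5 and 1710 CPM.

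**Figure D4:**
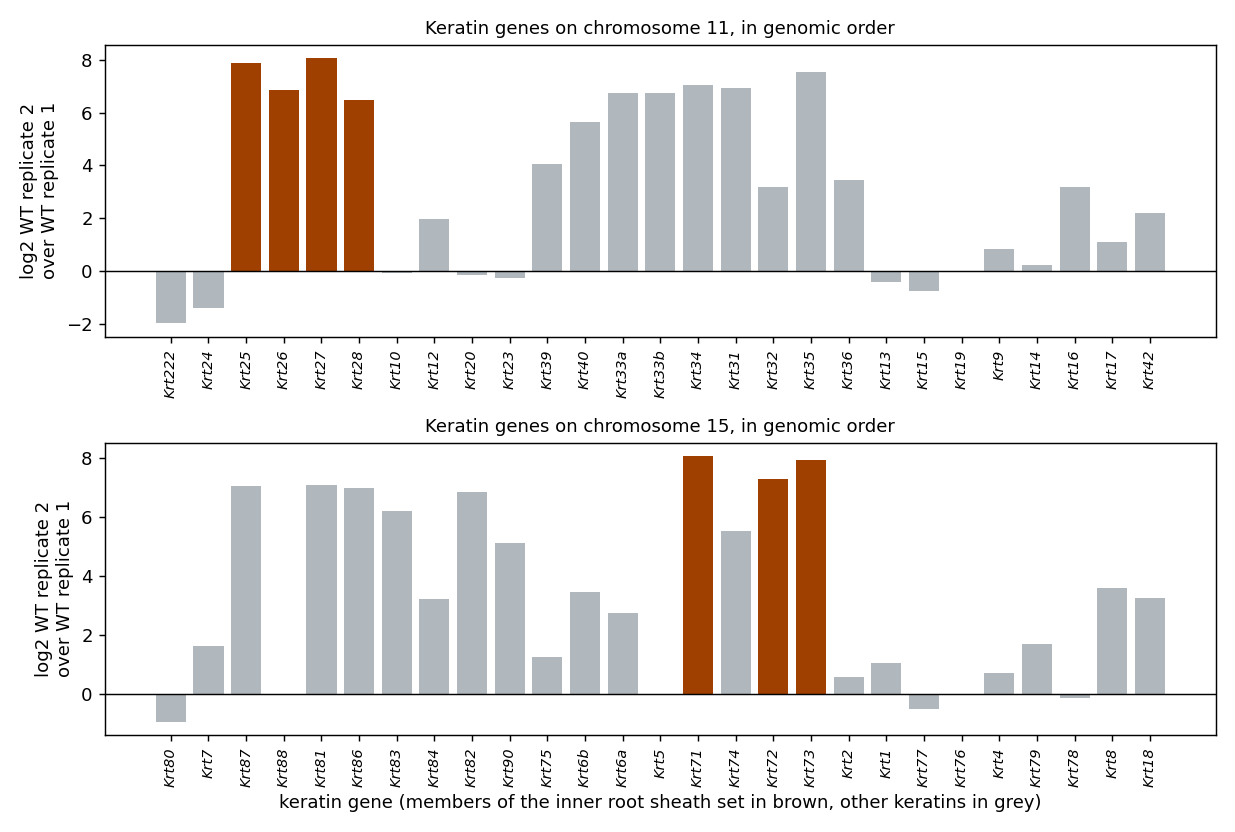
The log2 ratio of WT replicate 2 to WT replicate 1 (y axis; 0.1 CPM added to each value) for the keratin genes of chromosomes 11 and 15 in genomic order (x axis), with the inner root sheath members in brown. The 7 members reach from 6.49 (Krt28) to 8.07 (Krt71), while Krt10 and Krt5 beside their blocks are at -0.05 and -0.04.

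The genes whose levels over the 4 libraries were most like the mean profile of the 9 members were Krt35, Prr9, Crnn, S100a3 and Krtap11-1. Likeness was the Euclidean distance between centred log2(CPM + 1) profiles, over 13076 other genes with a mean of at least 5 CPM, and these 5 lay at 0.157 (Krt35), 0.242 (Prr9), 0.335 (Crnn), 0.595 (S100a3) and 0.785 (Krtap11-1). The members themselves lay between 0.0954 (Tchh) and 0.722 (Krt28), and 4 other genes were as close as the farthest member. Prr9, a proline-rich protein gene, stood at 5.07 (WT replicate 1), 936 (WT replicate 2), 765 (knockout replicate 1) and 920 CPM (knockout replicate 2). S100a3, a calcium-binding protein of the hair cuticle, stood at 5.13 (WT replicate 1), 476 (WT replicate 2), 460 (knockout replicate 1) and 601 CPM (knockout replicate 2). Krtap11-1, a hair keratin-associated protein, stood at 0.800 (WT replicate 1), 210 (WT replicate 2), 333 (knockout replicate 1) and 345 CPM (knockout replicate 2). With 4 libraries this order mainly reads the gap between WT replicate 1 and the rest.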

How the data were processed

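The deposited values were read counts per Ensembl gene, 1 file per library, made by the authors. The submitters' processing notes name HTSeq 0.6.1 and SAMtools 0.1.19 beside TopHat2 and CASAVA 1.8.2, and the build GRCm38. The annotation release and the strand setting were not given in the sources used here. HTSeq's 5 special lines (10.4% to 12.1% of counted reads per library) stayed out. Symbols, coordinates and exon lengths came from GENCODE vM21, which held 37607 of 39179 identifiers; Flg and Krt85 were not matched and are not analysed here. In R 4.3.3, edgeR 4.0.16 kept 16651 genes (filterByExpr, minimum count 10), scaled by TMM and tested knockout against WT by quasi-likelihood (legacy and robust options, two-sided, Benjamini-Hochberg, threshold 0.05). SE is the fold change divided by the square root of F. DESeq2 1.42.0 and limma 3.58.1 were alternatives. The procedure was tested on simulated counts in which no library stood apart. That simulation does not cover a gap like that of WT replicate 1. Ratios carry exact binomial counting intervals; those of sums per kb scale the interval of the summed reads. The members and lists were chosen with earlier results of these data known. Named context genes were taken from the 3 most abundant of each list, not all of which are given, and the 5 most alike. Krt32, Krt34, Krt40, Krt82, Tgm3, Tchhl1, Crnn, Shh, Lgr6, Krt24, Krt74, Krt2 and the genes named to complete a count were added after their values were seen.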

Additional observations from a re-analysis of the deposited data

How the results depend on the processing

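The log2 fold changes of the 9 members stayed above 0 and uncalled with DESeq2, limma-voom, DESeq2 size factors, library size alone, no filter, a minimum count of 30, the replicate block and without either knockout library. Without WT replicate 1 they reversed for Krt25 (-0.12), Krt26 (-0.0041), Krt27 (-0.18), Krt28 (-0.0058), Krt71 (-0.20), Krt73 (-0.26), Tchh (-0.19) and Padi3 (-0.16). Without WT replicate 2, the other end of the range over fits without 1 library, they were 7.79 (Krt25), 6.94 (Krt26), 7.93 (Krt27), 6.52 (Krt28), 7.89 (Krt71), 7.72 (Krt73), 7.04 (Tchh) and 7.30 (Padi3). The count of called members ran from 0 to 9 over the fits without 1 library, with 9 only without WT replicate 2. The count over all genes, 1 in edgeR, was 2329 with DESeq2, 0 with limma-voom (3582 at an unadjusted p under 0.05), 488 without a filter, and from 0 to 5320 without 1 library; the cause was not tested. With the replicate block it was 0 (3998 at an unadjusted p under 0.05), and the members' median was 3.54. Same-numbered libraries share only a number; their deviations correlated at 0.186 across genes. As ratios of counts, type I to type II was 0.943, 0.992 and 0.944 in WT replicate 2 and knockouts 1 and 2, and sheath to shaft 2.24 and 3.94 in the knockouts. With the longest transcript as length, sheath to shaft was 5.25, 2.05 and 3.71 in WT replicate 2 and the knockouts. Depth limits only the WT replicate 1 values, which rest on 18 to 205 reads a gene.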

Other observations

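The next genes in the order of distance to the mean profile of the sheath members, at places 6 to 12, were Tchhl1, Calhm4, Krt33a, Lrrc15, Krt87, Krt31 and Vsig8, at distances from 0.849 to 1.11. How many places to give was chosen after the values were seen. Calhm4 stood at 0.0667 (WT replicate 1, 1 read), 70.4 (WT replicate 2), 76.0 (knockout replicate 1) and 71.0 CPM (knockout replicate 2). Lrrc15, a leucine-rich repeat membrane protein gene, stood at 5.07 (WT replicate 1), 335 (WT replicate 2), 351 (knockout replicate 1) and 380 CPM (knockout replicate 2). Vsig8 stood at 1.13 (WT replicate 1), 106 (WT replicate 2), 124 (knockout replicate 1) and 134 CPM (knockout replicate 2). In these 3 genes the libraries other than WT replicate 1 lay close together. Of the shaft keratins, Krt87 stood at 0.533 (WT replicate 1), 83.2 (WT replicate 2), 134 (knockout replicate 1) and 115 CPM (knockout replicate 2). Krt31 stood at 0.667 (WT replicate 1), 92.3 (WT replicate 2), 165 (knockout replicate 1) and 136 CPM (knockout replicate 2).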
